A study of Mus musculus with 23 samples.

Results

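Oocyte growth in culture was described here as the step from germ cell precursors reaggregated with gonadal cells to the oocytes of secondary follicles that formed in the same aggregates. The members are the genes with at least 1 FPKM (fragments per unit of transcript length, scaled to the number of mapped fragments) in either group, 12793 of the 22784 genes in the table. Each was taken as the difference of log2(FPKM + 1), oocytes minus precursors. The groups hold 3 samples each, 6 of the 23 samples of the study, and the deposited table gives 1 pooled value per group. No difference below therefore has a replicate check, and none was tested.

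The study followed female mouse embryonic stem (ES) cells through primordial germ cell-like cells (PGCLCs, made in a dish to resemble the embryonic founders of the germ line) to mature oocytes, beside germ cells from animals. Both culture groups came from the strain cross C57BL/6 X 129. PGCLCs were purified by cell sorting and combined with gonadal somatic cells of female E12.5 embryos, 5000 with 50000 for each reconstituted ovary. The earlier group, reaggregated PGCLCs, was taken after 3 days, with 5300 to 15000 cells per library. The later group was taken after 21 days as oocytes of secondary follicles, in which the oocyte is enclosed by more than 1 layer of granulosa cells, with 337 to 812 oocytes per library. Between the 2 time points the culture medium was changed at 4 days, and 500 nM ICI182780, an oestrogen receptor antagonist, was present from day 7 to day 10. The later cells therefore share 18 more days, another medium and the antagonist, whose parts cannot be told apart. The animal counterparts were of strain B6D2F1, with 3 samples each. One of them was primordial germ cells (PGCs) taken at E12.5 and the other secondary follicle oocytes from ovaries at postnatal day 8, so strain and route cannot be told apart either. Both were sorted by the BVSC transgenes, reporters driven by Prdm1 and Dppa3. The labels used here do not say how the cells of the culture groups were parted from the somatic cells.

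Growing oocytes halt in the prophase of meiosis and enlarge for weeks while they build the egg coat and store mRNA and protein for the embryo, which has to develop at first without transcription. Oocyte transcription factors such as Figla, Nobox, Lhx8 and the Sohlh proteins switch on the growth genes. Kit and PI3 kinase signalling starts growth, which Foxo3 holds back. The oocyte also regains DNA methylation during growth, after the germ line had lost it. FPKM values are relative to the mRNA of their group, and their sums differ between groups, so they are not exact shares. A growing oocyte holds far more mRNA than a PGC, so a lower FPKM need not be a lower amount per cell. In such bulk samples fewer cells of a type and less RNA per cell cannot be told apart.

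The promoters of 2 genes with the highest differences and 2 among the lowest are shown, because they are the ends of the range and have a single annotated start in the table. Each is the 250 bases before the transcription start in RefSeq on GRCm38.p6, the assembly also called mm10, written 5′ to 3′ on the gene's strand. Capitals mark CANNTG, the E-box, which basic helix-loop-helix factors bind, Figla among them. The sequences are Zp3 (chr5:135979855-135980104, plus strand), Padi6 (chr4:140742644-140742893, minus strand), Rhox5 (chrX:37754358-37754607, plus strand) and Utf1 (chr7:139943606-139943855, plus strand).
Zp3: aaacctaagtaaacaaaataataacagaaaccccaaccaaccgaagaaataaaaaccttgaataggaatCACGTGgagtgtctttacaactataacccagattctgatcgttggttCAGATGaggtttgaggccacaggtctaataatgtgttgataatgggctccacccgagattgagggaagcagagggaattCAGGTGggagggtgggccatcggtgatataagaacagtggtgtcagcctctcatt
Padi6: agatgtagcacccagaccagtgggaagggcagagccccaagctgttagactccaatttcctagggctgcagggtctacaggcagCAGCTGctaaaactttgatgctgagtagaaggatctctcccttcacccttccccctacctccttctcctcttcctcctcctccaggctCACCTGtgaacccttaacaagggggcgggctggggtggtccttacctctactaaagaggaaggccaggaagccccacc
Rhox5: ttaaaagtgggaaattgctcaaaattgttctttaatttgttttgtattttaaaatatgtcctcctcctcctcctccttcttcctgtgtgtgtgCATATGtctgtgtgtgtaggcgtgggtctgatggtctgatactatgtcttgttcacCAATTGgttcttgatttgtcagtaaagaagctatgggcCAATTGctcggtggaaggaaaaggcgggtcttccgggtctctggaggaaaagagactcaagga
Utf1: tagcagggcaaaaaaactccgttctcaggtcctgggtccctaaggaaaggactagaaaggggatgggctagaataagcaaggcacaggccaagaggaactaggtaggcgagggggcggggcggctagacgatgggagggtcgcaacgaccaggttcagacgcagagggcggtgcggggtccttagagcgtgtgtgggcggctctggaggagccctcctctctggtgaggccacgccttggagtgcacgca

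The Zp3 stretch held 5 CpG and 3 E-boxes, beginning 181, 134 and 55 bases before the start, the farthest of which reads CACGTG. Padi6 had 1 CpG and 2 E-boxes, Rhox5 had 4 CpG and 3 E-boxes, and Utf1 had 14 CpG and 0 E-boxes. The motif reads the same on both strands, and CACGTG is 1 form of it. Over the 10259 tested genes with a sequence, 57.3% of such 250-base stretches held CANNTG and 8.67% held CACGTG, so a match says little about 1 gene, and its absence says only that these letters are not there. Zp3 lies on chromosome 5 from 135980105 to 135988624, Padi6 on chromosome 4 from 140727355 to 140742643, Rhox5 on chromosome X from 37754608 to 37808878 and Utf1 on chromosome 7 from 139943856 to 139945112.

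A gene is called higher or lower where the difference reached 1 on the log2(FPKM + 1) scale, which is 2-fold, and "rose" and "fell" are used for such genes only. Of the 12793 genes 3594 (28.1%) were higher and 3755 (29.4%) lower in the oocytes, and 5444 stayed within 2-fold. These shares are the background against which the counts of each gene group below should be read. Genes that passed the filter through 1 group alone could not be called higher in the other group. The median difference was -0.10. Scaled to equal sums of FPKM, which were 268720 in the PGCLCs and 349451 in the oocytes, the counts were 2975 higher and 4682 lower and the median was -0.43. Of the 716 tested members of the 37 gene lists described below, 18 lost a call as higher under equal sums, 57 gained one as lower and 0 reversed. Among the genes named below, those that lost it were Cd9, Nlrp4c, Ezh2, Dppa3, Crabp2, Syce2 and E2f1, with values of 0.65 to 0.97, and Pou5f1 (-1.16), Piwil2 (-1.19) and Cd68 (-1.05) became lower.

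The large differences lay mostly on the higher side. At 5 or more on the log2 scale there were 250 genes higher and 58 lower, and at 8 or more 46 higher and 4 lower. From below 1 FPKM to 10 or more went 543 genes, and the reverse way 298. The number of genes with at least 1 FPKM hardly moved, from 11046 to 10879. The share of all FPKM in the 10 most abundant genes went from 5.55% to 9.47%, and these were different genes, as 0 were common to both lists and 4 were common to the 100 most abundant.

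Among the 10 most abundant genes of reaggregated PGCLCs 7 encode ribosomal proteins, led by Rplp1 at 2648 FPKM. The others were Gnb2l1, which encodes the ribosome-bound protein Rack1, the chaperone gene Hsp90ab1 and the elongation factor gene Eef1a1. In the oocytes the most abundant were Zp3 (5094 FPKM), Padi6 (4915 FPKM), the ubiquitin hydrolase gene Uchl1 (3864 FPKM), Gdf9 (3394 FPKM) and Zbed3 (3302 FPKM). After them came Zp2, Ldhb, the predicted gene Gm15698 (2447 FPKM), Nlrp14 and Tle6. Of these 10, Uchl1 and Ldhb alone had over 20 FPKM in the PGCLCs, with 129.6 FPKM for Uchl1.

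**Figure D1:**
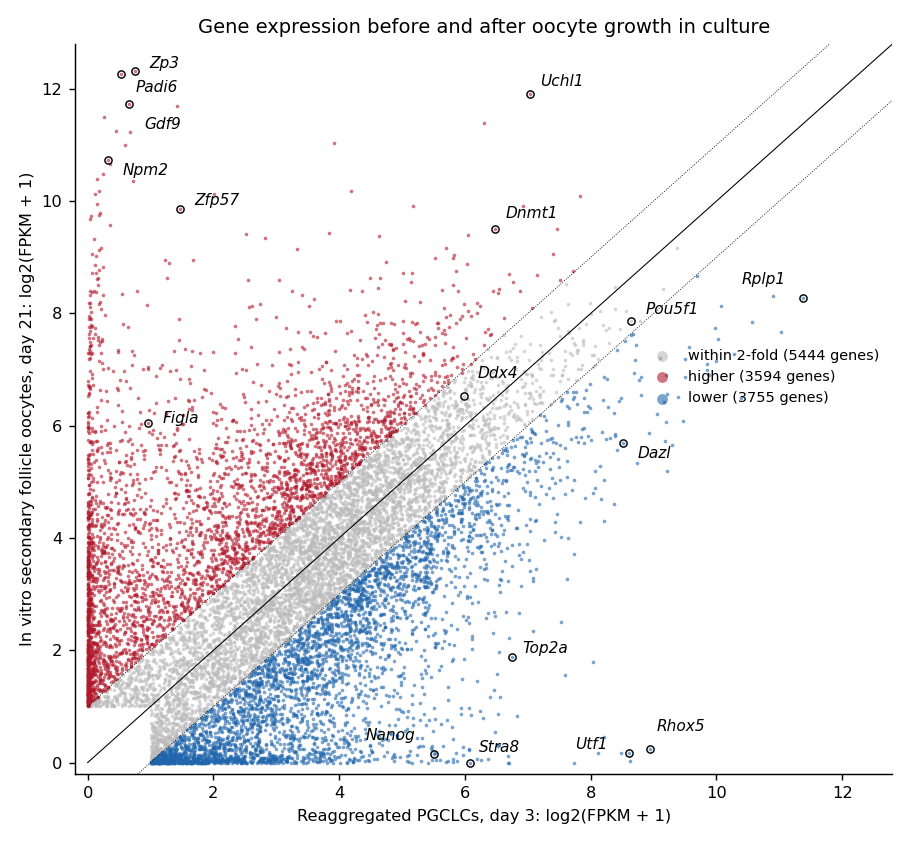
Each point is 1 of the 12793 genes, with log2(FPKM + 1) in reaggregated PGCLCs on the x axis and in in vitro secondary follicle oocytes on the y axis; the solid line marks equality and the dotted lines 2-fold. The 3594 higher genes (red) reach up to Zp3, Padi6 and Gdf9 along the left edge, where PGCLC values are near 0, and the 3755 lower genes (blue) reach down to Rhox5, Utf1 and Stra8 along the bottom edge.

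The egg coat and egg surface genes were among the genes with the largest differences, and 9 of 9 rose, with a median difference of 8.15. Of the 9, 2 had 1 FPKM or more in both groups, and the rest could not fall. These 2 rose, with a median of 3.94 without a pseudocount. Zp3, a zona pellucida protein that builds the egg coat, had 0.683 FPKM in reaggregated PGCLCs and 5094 FPKM in the oocytes, a difference of 11.56. Zp2, which is cleaved after fertilization to block further sperm, had 0.202 and 2885 FPKM. Astl, the gene of ovastacin, the protease that cleaves Zp2, had 0.111 and 983 FPKM. These genes were near 0 in the PGCLCs and were abundant in the oocytes. Folr4, which encodes Juno, the egg receptor for the sperm protein Izumo1, had 0.483 and 224 FPKM. Cd9, a membrane protein needed for sperm and egg fusion, was already at 77.9 FPKM in the PGCLCs and had 172 FPKM in the oocytes, a difference of 1.14, the smallest of the list. Together the 9 genes went from 0.0320% of all FPKM to 3.46%.

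Of growth factors that the oocyte secretes to its granulosa cells 4 of 4 rose, with a median of 6.75. Of these, 1 had 1 FPKM or more in both groups, and the rest could not fall. Gdf9, required for follicles to pass the primary stage, had 0.585 FPKM in the PGCLCs and 3394 FPKM in the oocytes. Its partner Bmp15, on the X chromosome, had 0.719 and 337 FPKM. Bmp6 had 0.0540 and 61.0 FPKM, and Fgf8, which acts with Bmp15 on cumulus cell glycolysis, had 1.31 and 55.0 FPKM. The 2 protein partners Gdf9 and Bmp15 thus stood about an order of magnitude apart in FPKM, a unit that is per transcript length.

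The receptor and signalling genes that control the start of oocyte growth showed little of this. Of 15 genes of Kit, PI3 kinase, Foxo3 and mTOR signalling 0 rose and 3 fell, or 0 with a pseudocount of 5, and the median was 0.01, with the sign changing to -0.34 under equal sums. Kit, the receptor for the granulosa cell ligand, had 67.5 and 73.3 FPKM. Foxo3, which holds primordial follicles dormant, had 21.7 and 33.6 FPKM. Mtor had 19.3 and 22.5 FPKM. These 3 genes were within 2-fold. The kinase subunit gene Pik3cb fell from 13.0 to 4.90 FPKM. Rps6, which also fell, is a ribosomal protein gene with many near-identical copies, and its value is uncertain.

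The subcortical maternal complex is a protein assembly under the egg membrane that early embryos need. Of 8 genes of this complex and of the cytoplasmic lattices 8 rose, with a median of 8.07 and a range from 6.00 to 11.73. Of these, 4 had 1 FPKM or more in both groups, and the rest could not fall. Padi6, an arginine deiminase family protein needed for the lattices, had 0.444 FPKM in the PGCLCs and 4915 FPKM in the oocytes, the highest difference among all named genes. Nlrp5, also called Mater, had 0.0847 and 1123 FPKM. Tle6 had 14.1 and 2088 FPKM and Ooep 17.2 and 1161 FPKM, so these 2 members were detected in the PGCLCs while Padi6 and Nlrp5 were near 0. Zbed3 had 1.67 and 3302 FPKM, and Khdc3 3.00 and 1114 FPKM. The list went from 0.0136% to 4.03% of all FPKM.

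Other Nlrp genes and the 2′,5′-oligoadenylate synthetase genes, families with several oocyte members, also had high differences. Of 9 other Nlrp genes 9 rose, with a median of 6.46, from Nlrp4c (5.93 and 16.2 FPKM) to Nlrp14 (0.595 and 2416 FPKM). Of these, 2 had 1 FPKM or more in both groups, and the rest could not fall. Of 7 tested synthetase genes 7 rose, with a median of 8.32, among them Oas1e (0.0374 and 855 FPKM) and Oas1d (0.0820 and 467 FPKM). All 7 were below 1 FPKM in the PGCLCs, so they passed the filter only through the oocytes and their direction was fixed. Oas1d lacks synthetase activity and is known as an oocyte protein. The family members Oas1a, Oas1g and Oas2, which respond to interferon in other cells, were below 1 FPKM in both groups and did not enter the test, so the 7 are the members that passed the filter and not the family. Members of both families resemble each other in sequence, and reads may have been divided between copies.

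Oocyte transcription regulators were mixed. Of 14 tested genes 9 rose and 2 fell, with a median of 4.56. Of these, 6 had 1 FPKM or more in both groups, and the rest could not fall. Without a pseudocount 1 of the 6 rose and 2 fell, with a median of 0.29. Nobox, a homeobox factor of the primordial and growing oocyte, had 0.114 FPKM in the PGCLCs and 389 FPKM in the oocytes. Figla, the activator of the zona genes, had 0.938 and 65.3 FPKM, and Lhx8 had 0.635 and 134.5 FPKM. These 3 factors were near or below 1 FPKM at the start. The Sohlh pair, which act upstream of Nobox and Figla, went in opposite directions: Sohlh1 rose from 0.489 to 23.2 FPKM, and Sohlh2 fell from 41.8 to 4.42 FPKM. Taf4b, a TFIID subunit enriched in germ cells, fell from 18.2 to 7.45 FPKM, while Tbpl2, which replaces the TATA-binding protein in growing oocytes, rose from 0.00406 to 34.0 FPKM. The homeobox genes Obox1, Obox2 and Obox5 had 187, 215 and 287 FPKM in the oocytes and at most 0.138 FPKM before, though these genes have close copies.

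Of the linker histone and nucleoplasmin genes tested, those that fell were both nucleoplasmin genes. H1foo, the oocyte linker histone, had 0.504 FPKM in the PGCLCs and 2036 FPKM in the oocytes. Npm2, known for unpacking sperm chromatin in the egg, had 0.247 and 1698 FPKM. Npm1 and Npm3, of the same family and expressed in most dividing cells, fell from 335 to 55.2 FPKM and from 42.9 to 8.24 FPKM. Of the 8 tested members 5 rose and 2 fell, with a median of 1.46. Hist1h1b, Hist1h1d and Hist1h1e did not pass the filter, and poly(A) selection captures such histone mRNAs poorly.

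**Figure D2:**
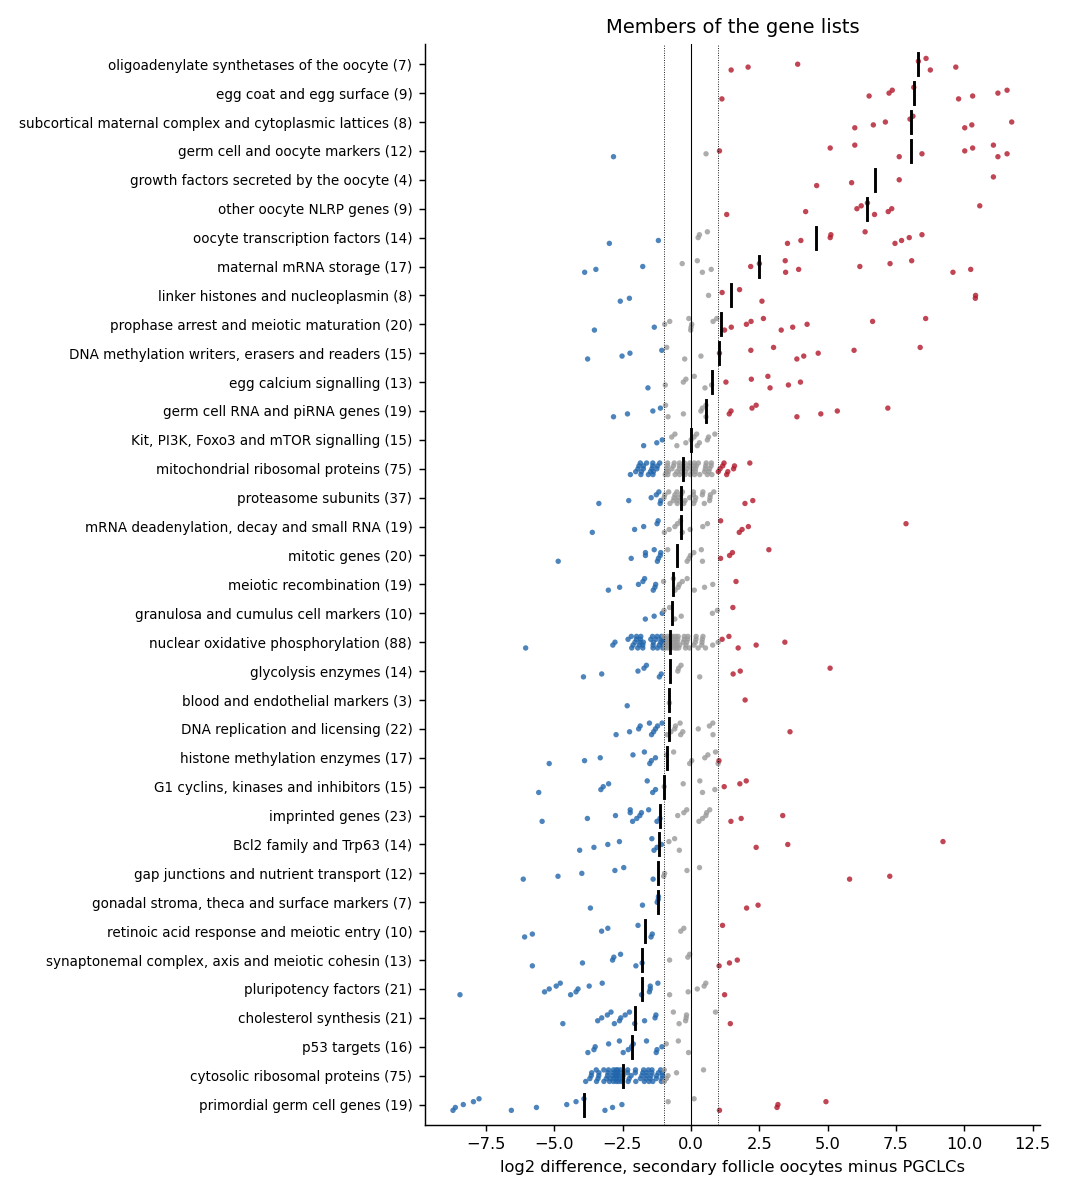
Each point is 1 tested member of a gene list, placed by its log2(FPKM + 1) difference, with the number of tested members in brackets; red is 2-fold higher, blue 2-fold lower, grey within 2-fold, and the black bar is the list's median. Medians run from 8.32 for the oligoadenylate synthetase genes at the top, whose tested members could not fall, to -3.91 for the primordial germ cell genes at the bottom.

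Of 15 tested DNA methylation genes 8 rose and 4 fell, with a median of 1.05. Dnmt1, the maintenance methyltransferase, went from 87.9 to 723 FPKM, 8.22-fold. Dnmt3a, which methylates new sites in the oocyte, had 5.71 and 29.7 FPKM, and its cofactor Dnmt3l 0.00840 and 62.1 FPKM. The other new-site enzyme gene, Dnmt3b, stayed within 2-fold at 3.04 and 4.21 FPKM. Kdm1b, a histone demethylase that oocytes need to methylate imprinted regions, had 10.6 and 202 FPKM. Uhrf1, the partner of Dnmt1, had 11.1 and 304 FPKM, and Zfp57, which guards methylated imprints, 1.78 and 928 FPKM.

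Among the enzymes that oxidize methylated cytosine the 3 Tet genes did not move together. Tet1 fell from 18.0 to 0.388 FPKM and Tet2 from 5.67 to 0.167 FPKM. Tet3, the form known from the fertilized egg, rose from 0.797 to 25.4 FPKM. Of Uhrf1 and its paralog, Uhrf2 fell from 25.2 to 4.59 FPKM. Seen along the whole culture route, Zfp57 had 185 FPKM in ES cells and 1.15 FPKM in day 6 PGCLCs, and Uhrf1 had 123 and 7.26 FPKM, so both were high, then low in both PGCLC groups, then high in the oocytes. Dnmt1 had 83.0 to 89.4 FPKM in ES cells and both PGCLC groups and was higher in both culture oocyte groups, with 334 FPKM in MII oocytes.

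Genes of histone methylation were mostly flat or lower. Of 17 genes 1 rose and 8 fell, with a median of -0.89. Suv39h1, an X-linked methyltransferase of histone H3 lysine 9, fell from 43.7 to 0.231 FPKM, whereas its autosomal paralog Suv39h2 had 11.7 and 17.1 FPKM and was within 2-fold. Kmt2a fell from 18.4 to 0.307 FPKM, while Kmt2b, the paralog that oocytes need, had 21.8 and 21.2 FPKM. Ezh2, the catalytic subunit of Polycomb complex 2, rose from 52.3 to 108 FPKM, and its partner Suz12 fell from 55.8 to 16.5 FPKM.

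**Figure D3:**
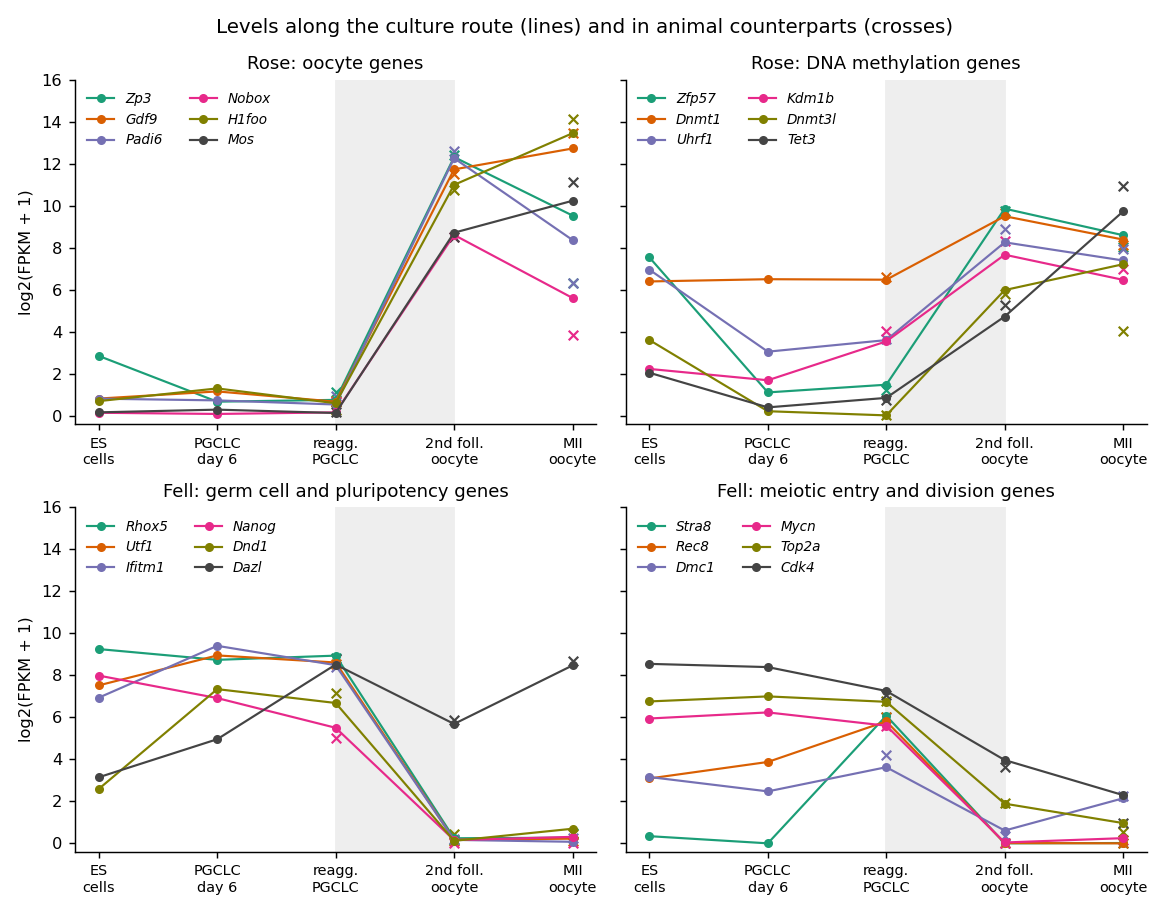
Level of 24 genes as log2(FPKM + 1) on the y axis along the culture route on the x axis, with 1 pooled value per point; the grey band is the step described here, lines join culture groups, and crosses mark E12.5 PGCs, day 8 secondary follicle oocytes and MII oocytes of animals. Zfp57 and Uhrf1 dip in the PGCLC groups and return in the oocytes, while Rhox5, Utf1, Ifitm1, Nanog and Dnd1 are near 0 from the secondary follicle on.

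Genes of the early germ line had the lowest median of the 37 lists. Of 19 tested genes of PGCs 13 fell and 4 rose, with a median of -3.91. This rank rests on genes near 0 in the oocytes. Without a pseudocount, 8 genes had 1 FPKM or more in both groups, of which 3 rose and 3 fell, with a median of -0.42. The lowest median was then that of the ribosomal protein genes, at -2.74. Rhox5, an X-linked homeobox gene, fell from 490 to 0.182 FPKM. Ifitm1, whose product marks the surface of PGCs, fell from 358 to 0.120 FPKM. Dnd1, an RNA-binding protein that PGCs need to survive, fell from 102 to 0.0868 FPKM, and its partner Nanos3 from 23.4 to 0.0490 FPKM. The 3 factors that specify PGCs fell too: Prdm1 from 28.7 to 3.08 FPKM, Prdm14 from 17.6 to 0.0103 FPKM, and Tfap2c from 40.5 to 6.22 FPKM. Those that rose were Dppa3 (210 and 434 FPKM), Tcl1 (55.0 and 508 FPKM), Nanos1 and Nanos2. Dppa3 and Tcl1 are also known as maternal factors of the egg, and Dppa3 and Prdm1 drive the reporters by which the animal cells were sorted.

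Pluripotency factors fell in 15 of 21 tested genes and 1 rose, with a median of -1.80. Utf1 had 391 and 0.124 FPKM, the largest difference of the list at -8.44. Nanog had 44.4 and 0.112 FPKM, and Sox2 had 87.6 and 1.44 FPKM. Pou5f1, the gene of Oct4, remained within 2-fold at 398 and 232 FPKM, as did Dppa5a (281 and 263 FPKM) and Esrrb (37.3 and 52.6 FPKM). The list therefore held genes that left the mRNA pool almost entirely and genes that kept a high level.

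Germ cell RNA genes and genes of the piRNA pathway, which keeps transposons silent, moved both ways. Of 19 tested genes 8 rose and 4 fell, with a median of 0.55. Ddx4, the germ cell helicase also called Vasa, was within 2-fold at 62.1 and 91.7 FPKM, and Dazl, a translation regulator, fell from 365 to 50.5 FPKM. Gtsf1 rose from 0.919 to 282 FPKM, Tdrd1 from 2.67 to 98.0 FPKM and Henmt1, which methylates piRNA ends, from 0.231 to 49.4 FPKM. Of the Piwi genes, Piwil2 had 21.7 and 11.7 FPKM, within 2-fold, Piwil1 rose from 0.163 to 5.08 FPKM, and Piwil4 was below 1 FPKM in both groups.

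Genes of entry into meiosis were mostly lower in the oocytes. Stra8, which retinoic acid induces before meiosis, had 66.7 FPKM in reaggregated PGCLCs and was listed at 0 in the oocytes. Of 10 tested genes of the retinoic acid response and meiotic entry 7 fell and 1 rose, with a median of -1.69. Rec8, the meiotic cohesin, fell from 55.1 to 0.00876 FPKM. Gm1564, an older symbol of Meioc, which keeps cells in prophase, fell from 10.5 to 0.400 FPKM, and Ythdc2, its partner, had 5.91 and 4.35 FPKM. Crabp2 rose from 10.8 to 25.4 FPKM and Crabp1, also a retinoic acid carrier, fell from 20.9 to 1.28 FPKM.

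Within the chromosome axis and synaptonemal complex, 7 of 13 genes fell and 3 rose, with a median of -1.78. The cohesin genes Stag3 and Smc1b fell from 55.3 to 2.61 FPKM and from 55.9 to 13.1 FPKM. Syce1 fell from 21.5 to 2.19 FPKM, and Syce2, whose protein binds it in the central element, rose from 133 to 273 FPKM. Sycp3, of the lateral element, had 34.0 and 32.9 FPKM, and Sycp1, of the transverse filament, 6.19 and 5.65 FPKM. Of 19 tested recombination genes 8 fell and 1 rose, with a median of -0.64. Many members were at a few FPKM, and with a pseudocount of 5 there were 3 that fell and 0 that rose. Dmc1, the meiotic strand exchange protein, fell from 11.3 to 0.525 FPKM. Spo11, which makes the DNA breaks, had 2.78 FPKM and was listed at 0 in the oocytes. Msh4 rose from 0.964 to 5.17 FPKM.

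Genes of DNA synthesis and the G1 phase were lower more often than higher. Of 22 replication genes 10 fell and 1 rose (median -0.80), and of 15 tested G1 genes 7 fell and 3 rose (median -0.98). Cdk4 fell from 152 to 14.6 FPKM, 10.4-fold, and Mycn from 47.7 to 0.0283 FPKM. The replicative helicase genes Mcm3 and Mcm7 fell from 98.1 to 19.9 FPKM and from 74.0 to 19.8 FPKM. The replication gene that rose was Gins2, from 7.98 to 110 FPKM. E2f1 and E2f2 rose, to 84.7 and 25.4 FPKM, and E2f3 fell from 11.3 to 0.333 FPKM.

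Mitotic genes were divided as well, with 9 of 20 lower, 4 higher and a median of -0.49. Top2a, which untangles chromosomes, fell from 106 to 2.70 FPKM, and Mki67, a marker of cycling cells, from 41.1 to 8.27 FPKM. Cdk1 and its cyclin gene Ccnb1, which drive the resumption of meiosis, stayed within 2-fold, with 32.4 and 29.4 FPKM for Cdk1. Birc5, of the chromosomal passenger complex, rose from 64.5 to 472 FPKM. Aurkb, the kinase of that complex in mitosis, fell from 29.1 to 8.52 FPKM, and Aurkc, the germ cell form, rose from 1.28 to 9.50 FPKM.

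Genes of prophase arrest and meiotic maturation were higher in 10 of 20 tested cases and lower in 2, with a median of 1.09. Mos, the kinase of the later egg arrest, had 0.0916 FPKM in the PGCLCs and 419 FPKM in the oocytes. Wee2, the oocyte kinase that holds Cdk1 inactive, had 0.0582 and 105 FPKM. Gpr3 and Pde3a, which set cyclic AMP in the arrested oocyte, had 16.9 and 22.6 FPKM in the oocytes and 0.357 and 0.239 FPKM before. Adcy3 fell from 12.6 to 0.184 FPKM. In the list of egg calcium signalling 6 of 13 rose and 1 fell (median 0.76), with Itpr2 at 0.191 and 18.2 FPKM and Orai1, a membrane calcium channel, at 9.82 and 79.5 FPKM.

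Genes that store mRNA in the oocyte rose in 10 of 17 cases and fell in 3, with a median of 2.51. Zar1, a scaffold of stored mRNA, had 0.182 FPKM in the PGCLCs and 1424 FPKM in the oocytes. Eif4e1b, an oocyte form of the cap-binding protein, had 0.130 and 867 FPKM, while Eif4e was within 2-fold at 29.0 and 23.1 FPKM. In 2 other pairs the oocyte form rose and the general paralog fell. Pabpc1l rose from 0.175 to 182 FPKM as Pabpc1 fell from 286 to 24.9 FPKM, and Ybx2 rose from 50.9 to 572 FPKM as Ybx1 fell from 70.7 to 20.2 FPKM. Of 19 genes of mRNA decay and small RNA 5 rose and 5 fell, near the shares over all tested genes, with a median of -0.38. Btg4, an adaptor of the deadenylase, rose from 0.159 to 270 FPKM and Dicer1 from 14.4 to 65.0 FPKM. Zcchc11 fell from 15.2 to 0.332 FPKM and Dgcr8 from 45.5 to 10.2 FPKM.

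Gap junction and transport genes had 6 of 12 tested members lower and 2 higher. Gja4, the connexin 37 of oocyte junctions, had 2.19 and 492 FPKM, and Slc6a9, the glycine transporter that regulates oocyte volume, 1.94 and 163 FPKM. Gjc1, another connexin gene, fell from 54.8 to 2.52 FPKM and the glucose transporter gene Slc2a3 from 30.2 to 0.0759 FPKM. The median of the list was -1.19, which the 2 genes with large rises do not show.

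The cytosolic ribosomal protein genes were lower almost throughout. Of 75 tested 69 fell and 0 rose, with a median of -2.48, and the list went from 7.04% to 0.776% of all FPKM. Rplp1 fell from 2648 to 309 FPKM, 8.58-fold, and Rpl8 from 2089 to 202 FPKM. Rpl39l, a germ cell paralog, had 69.6 and 48.1 FPKM and was within 2-fold. Many of these genes have near-identical copies, and several known to be abundant, such as Rpl10 and Rpl24, were below 1 FPKM in both groups, so single values are uncertain. Short transcripts were lower too: 597 other genes with a longest coding transcript of 1000 bases or fewer had a median of -0.42, and the 74 ribosomal protein genes with a known length had a median length of 942 bases. The part of transcript length or of the lower input of oocytes in this result was not tested.

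Nuclear genes of oxidative phosphorylation, assembly factors included, fell in 34 of 88 tested cases and rose in 5 (median -0.76, 5.00% to 2.17% of all FPKM). With equal sums 50 of them were lower and 4 higher, and the median was -1.12. Cox7a1, a tissue-restricted subunit of complex IV, fell from 192 to 1.93 FPKM, and another such subunit gene, Cox4i2, rose from 0.0472 to 10.3 FPKM. Mitochondrial ribosomal protein genes had 20 of 75 lower and 9 higher with a median of -0.28, and 28 lower and 3 higher under equal sums. Of 37 tested proteasome genes 7 fell and 2 rose, and 28 were within 2-fold. Under equal sums 12 fell.

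In sugar metabolism single genes differed far more than the list, in which 7 of 14 tested fell, 3 rose and the median was -0.78, and with a pseudocount of 5 there were 3 that fell. Ldhb, the lactate dehydrogenase form that predominates in oocytes, rose from 78.0 to 2692 FPKM, 34.5-fold, and Ldha fell from 14.1 to 0.575 FPKM. Hk1, the enzyme that traps glucose, fell from 17.1 to 0.187 FPKM. Growing oocytes are known to use pyruvate and to take up little glucose. Gapdh and Eno1, enzyme genes with many processed copies, were below 1 FPKM in both groups, so their values are uncertain.

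Of 21 genes of cholesterol synthesis and uptake 14 fell and 1 rose, with a median of -2.05. Dhcr7, an enzyme of the last steps of the pathway, fell from 68.0 to 6.20 FPKM. Fdft1 rose from 37.4 to 103 FPKM. Oocytes are known to obtain cholesterol from their granulosa cells. In the animal the same list had 12 lower and 3 higher with a median of -1.05. There Dhcr7 had 49.3 and 6.76 FPKM.

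Cell death genes moved in opposite directions. Bax, which permeabilizes mitochondria, fell from 225 to 18.4 FPKM, Bid from 22.9 to 0.429 FPKM and Trp53, the gene of p53, from 78.4 to 8.67 FPKM. Bcl2l10, an oocyte member of the Bcl2 family, rose from 0.277 to 761 FPKM, Bcl2l1 from 13.0 to 72.2 FPKM and Trp63, whose product watches over DNA damage in resting oocytes, from 0.221 to 13.2 FPKM. Of 14 tested genes of a list that joins the Bcl2 family with Trp53 and Trp63, 8 fell and 3 rose, and with a pseudocount of 5, 5 fell and 3 rose. Of 16 tested p53 target genes 13 fell and 0 rose, with a median of -2.14, among them Cdkn1a (22.5 and 1.92 FPKM), Phlda3 (13.4 and 0.0555 FPKM) and Eda2r (10.3 and 0.00349 FPKM). With a pseudocount of 5, 8 of the 16 fell and the median was -1.15. In the animal 10 of 15 fell with a median of -1.37, where Eda2r started from 2.18 FPKM and Bax from 129 FPKM.

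Imprinted genes fell in 12 of 23 tested cases and rose in 3, with a median of -1.13. H19, a maternally expressed noncoding RNA, fell from 43.7 to 0.0303 FPKM, and its neighbour Igf2 from 7.93 to 1.27 FPKM. Phlda2 fell from 87.0 to 5.39 FPKM and Snrpn from 41.6 to 8.15 FPKM. Gnas rose from 65.0 to 677 FPKM, Mest from 11.0 to 42.0 FPKM and Peg10 from 1.04 to 4.62 FPKM. The symbol Gnas covers several transcripts, which the table does not separate.

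The labelled cell type was set beside markers of the germ line and of the cells around it, in the same values that define the step. Of 12 germ cell and oocyte markers 10 rose, Dazl fell and Ddx4 was within 2-fold, and all 12 had at least 50.5 FPKM in the oocytes. Of the 12, 4 had 1 FPKM or more in both groups, and the rest could not fall. Without a pseudocount 2 of the 4 rose and 1 fell. Granulosa and cumulus cell markers summed to 0.00890% of FPKM in the PGCLCs and 0.00695% in the oocytes, where 10 of 18 had passed the filter, 3 fell and 1 rose. The sums of these granulosa markers were 23.9 FPKM in the PGCLCs and 24.3 FPKM in the oocytes. The marker that rose was Cyp19a1, listed at 0 in the PGCLCs and at 1.90 FPKM in the oocytes. Those that fell were Amhr2 (3.20 and 0.323 FPKM), Rspo1 (2.35 and 0.320 FPKM) and Foxl2, which defines granulosa cells (1.28 and 0.102 FPKM). Amh had 0.232 and 1.13 FPKM, and Krt19 was listed at 0 in the oocytes. Stroma, theca and surface markers summed to 0.0110% and 0.00624%, with 7 of 16 past the filter, of which 5 fell and 2 rose. Gata4 rose from 2.31 to 17.2 FPKM and Upk3b, listed at 0 in the PGCLCs, had 3.11 FPKM. In E12.5 PGCs and secondary follicle oocytes of the animal Gata4 had 0.319 and 10.8 FPKM, and Upk3b 0.0453 and 0.802 FPKM. Vim fell from 17.0 to 0.411 FPKM, and the other 4 that fell started at 2.42 FPKM or below. With a pseudocount of 5, 1 stroma marker fell and 1 rose, and 0 granulosa markers fell or rose. Of 12 blood and endothelial markers, 5 were listed at 0 in both groups and 3 passed the filter: Pecam1, which PGCs also express, had 80.1 and 15.2 FPKM, Cd68 had 3.54 and 1.64 FPKM, and Laptm5 had 0.323 and 4.23 FPKM. The part of remaining somatic cells in the low values of other genes was not tested.

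Genes on the X chromosome were lower more often than other genes. Of 454 X-linked genes 204 (44.9%) fell and 100 (22.0%) rose, with a median of -0.82. Of 12265 autosomal genes 28.8% fell and 28.3% rose, with a median of -0.07. Leaving out the Rhox, Xlr and Mage families, which are expanded on the X, left 428 genes with a median of -0.80. Among genes with a mean of at least 10 FPKM the medians were -0.80 for 164 X-linked and 0.14 for 6004 autosomal genes. Oocytes are known to keep both X chromosomes active, whereas female somatic cells silence 1.

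Across the culture route the median level of these X-linked genes, as log2(FPKM + 1), was 3.23 in ES cells, 2.55 in day 6 PGCLCs, 2.77 in reaggregated PGCLCs, 2.11 in secondary follicle oocytes and 1.91 in MII oocytes. The autosomal medians of the first 4 groups lay between 3.17 and 3.21, and the fifth was 2.63. The X-linked genes named next were chosen after their values were seen and are not the ends of the range, which Rhox5 (-8.70) and Bmp15 (7.62) set. Porcn, needed for Wnt secretion, fell from 81.6 to 0.0494 FPKM, Dusp9 from 60.4 to 0.964 FPKM and Prdx4 from 134 to 4.07 FPKM. G6pdx, the first enzyme of the pentose phosphate pathway, rose from 7.86 to 212 FPKM, and Btk from 0.0199 to 18.0 FPKM. In the animal step 430 X-linked genes had a median of -0.77 and 11760 autosomal genes -0.09.

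Genes whose promoters are poor in CpG rose more often than the others. The window here is 250 bases before to 50 after the start in RefSeq, matched by symbol for 10259 (80.2%) of the tested genes, and 1 window was used per gene. Of 1014 genes with 0 to 5 CpG 54.2% rose and 24.1% fell, with a median of 1.15. With 6 to 15 CpG 30.3% of 2251 genes rose, with 16 to 25 23.7% of 3478, and with over 25 22.9% of 3516. The share that fell was between 29.4% and 30.6% in these 3 classes. Genes poor in CpG also started lower, on the log2(FPKM + 1) scale. Their median level was 1.06 in reaggregated PGCLCs against 2.65 to 3.61 in the other classes. A gene below 1 FPKM in the PGCLCs passed the filter only through the oocytes and could not fall. Likewise a gene below 1 FPKM in the oocytes could not rise. The shares are thus partly set by the filter, and the part of the filter and of the starting level was not tested. Among the genes called higher 79.6% had a window, and among those called lower 80.2%.

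**Figure D4:**
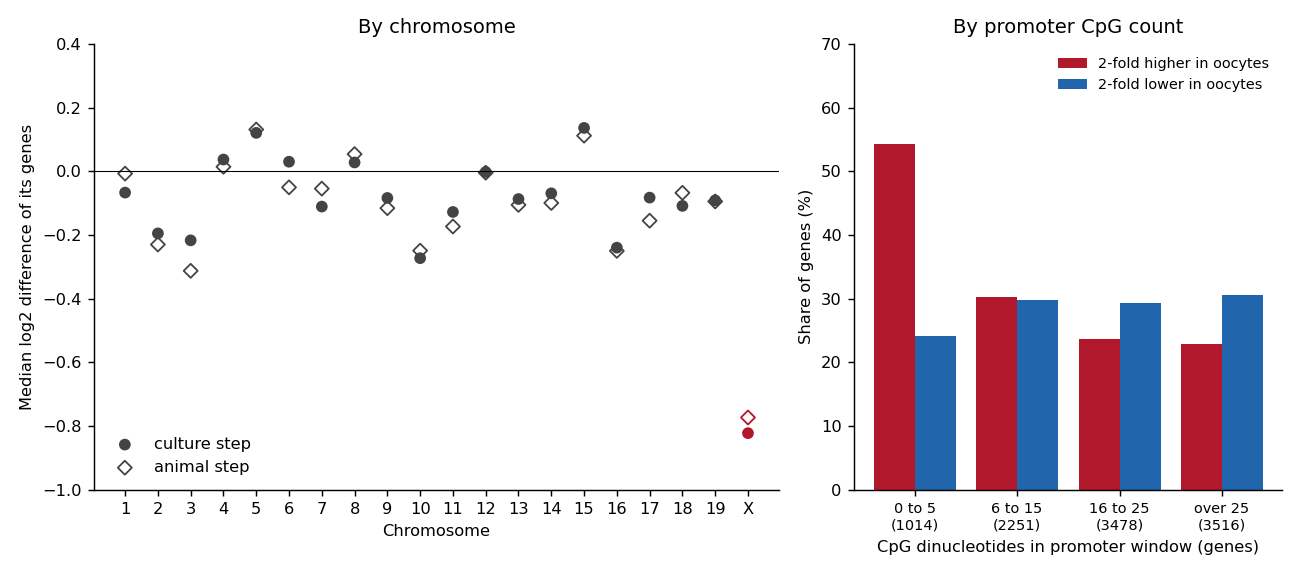
Left, the median log2 difference (y axis) of the tested genes on each chromosome (x axis), with filled circles for the step in culture and open diamonds for the animal; the X chromosome (red) stands at -0.82 and -0.77, below every autosome. Right, the share of genes in percent (y axis) that rose or fell by the number of CpG in their promoter window (x axis, genes in brackets), where the class with 0 to 5 CpG has 54.2% risen.

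The step in culture was set beside the step from E12.5 PGCs to day 8 secondary follicle oocytes, which shares no sample with it. In the animal 12545 genes passed the filter, of which 3466 (27.6%) were higher and 3683 (29.4%) lower. Over 12262 genes that passed in both, Pearson's r across genes was 0.971 and Spearman's rho 0.964. Genes are not independent replicates, and the library method and the processing are common to both steps. Higher in both were 3075 genes, 85.6% of those in culture and 88.7% of those in the animal. Lower in both were 3138 genes, 83.6% and 85.2%. In opposite directions were 0 genes, a count that was 9 with a pseudocount of 0.1. Of the 543 genes that went from below 1 to 10 FPKM or more in culture, 441 (81.2%) did so in the animal, and of 298 in the reverse direction 206 (69.1%).

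The culture step minus the animal step was 1 log2 unit or more for 330 genes and -1 or less for 247, a signed difference in which a smaller fall in culture also counts as positive. These were chosen by size and had no replicate check. Il17b, a cytokine gene, went from 0.0946 to 26.0 FPKM in culture and from 0.249 to 3.01 FPKM in the animal. Pla2g4e, a phospholipase gene, went from 3.08 to 24.9 FPKM in culture, and in the animal it had 2.45 FPKM in PGCs and a difference of -0.11. Ada, the gene of adenosine deaminase, went from 4.15 to 52.7 FPKM and from 4.58 to 11.1 FPKM. In these 3 genes the gap lay in the oocytes. C1qb, a complement gene of macrophages, went from 0.279 to 21.9 FPKM in culture and from 4.80 to 9.24 FPKM in the animal, where the macrophage marker Cd68 had 1.64 and 1.63 FPKM in the oocytes of culture and animal and the leukocyte gene Laptm5 had 4.23 and 1.24 FPKM. The part of blood cells in the C1qb values was not tested.

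For the next 3 genes the gap lay mostly in the starting cells. Egr1, an immediate early gene, went from 30.1 to 7.64 FPKM in culture and from 6.91 to 13.5 FPKM in the animal. Cdx2, a trophoblast and posterior factor, went from 2.64 to 0.106 FPKM and from 19.1 to 0.243 FPKM. Cldn4, a tight junction gene, went from 5.56 to 84.4 FPKM and from 0.384 to 86.7 FPKM. The imprinted gene Impact, a regulator of translation, fell from 19.5 to 8.35 FPKM in culture and differed by 1.00 log2 units the other way in the animal, short of a call. H2-Aa, a histocompatibility gene, went from 0.0491 to 2.75 FPKM in culture and had 21.5 FPKM in the oocytes of the animal.

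**Figure D5:**
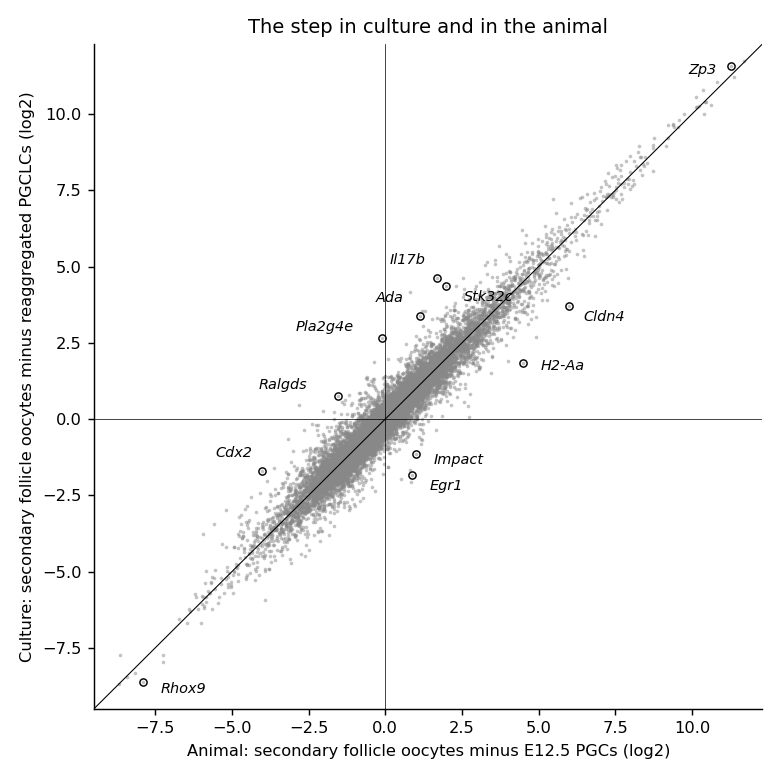
Each point is 1 of 12262 genes, with its log2(FPKM + 1) difference in the animal on the x axis and in culture on the y axis; the diagonal marks equal steps. Pearson's r across genes is 0.971, and the labelled genes off the diagonal, such as Il17b, Pla2g4e and Egr1, differ between the steps by over 2 log2 units.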

How the data were processed

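Poly(A) RNA was sequenced as directional libraries on a HiSeq2000, per the labels' protocols. Values are FPKM as deposited by the authors, 1 per gene and group over 8 columns, all matched to groups. TopHat2, Bowtie2 2.0.13, Cufflinks and Cuffdiff 2.2.1 were used with mm10, per the submitters' processing notes. The sources used here do not say how replicates were pooled, and the depth behind a value is unknown.

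From these values log2(FPKM + 1) differences were computed over genes with at least 1 FPKM in either group, in Python 3.11.15 with pandas 2.3.3, NumPy 2.4.6 and matplotlib 3.10.9. The calculation was run on PGCLC values with known changes put in and no noise, which checks the arithmetic and not the reliability of a call. The filter admits genes through the group where they are high. Named were the 15 highest and 15 lowest genes with at least 10 FPKM, the 10 most abundant per group, up to 5 called members of each of 37 lists, and 23 stage genes; other members and genes named were chosen after their values were seen. The members and lists were chosen with earlier results of these data known. Of 507 list entries 2 were not found in the table. The lists of ribosomal, respiratory chain and proteasome genes were drawn by symbol pattern. Chromosomes came from RefSeq (GRCm38.p6) for 12719 genes and lengths from GENCODE M21. Some genes that the rule names are not reported here. Alternatives were other pseudocounts, filters and scalings.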

Additional observations from a re-analysis of the deposited data

How the results depend on the processing

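No paired analysis was possible because the table holds 1 pooled value per group, and for the same reason no replicate could be left out. With a pseudocount of 5 the calls were 2341 higher and 2028 lower, the genes called the same way in the animal step 3657, and the X-linked minus autosomal median -0.33 against -0.75. With no pseudocount, over genes with 1 FPKM or more in both groups, there were 2265 higher, 2466 lower and 3813 called the same way; this leaves out genes that went to or from near 0. Opposite calls, 0 as reported, were then 4, with a pseudocount of 0.1 9, and after centring on the median 1. With no filter the X-linked minus autosomal median was -0.0026, as most added genes are near 0 in both groups. The median of all genes was -0.20 after quantile normalization, -0.43 with equal sums and -0.30 when rescaled without the 100 most abundant genes, which gave 3197 higher and 4337 lower. The stroma marker median reversed to 2.90 without a pseudocount, where 1 marker, Gata4, remains. Without a pseudocount 2 of 10 recombination genes fell. With a pseudocount of 5 the genes that fell were 3 against 5 in mRNA decay and 2 against 4 in the piRNA list, and those that rose were 2 against 5 in oxidative phosphorylation; under equal sums 4 genes of arrest and maturation fell, against 2. The 37 list medians had 368 alternative values, of which 317 stayed on their side of the 2-fold call. Across it went 50, in 19 lists, and 1 reversed, that of the stroma markers. Without a pseudocount the median was 0.29 against 4.56 for oocyte transcription regulators. It was 0.03 against 1.09 for arrest and maturation, and 0.76 against 2.51 for mRNA storage. The 201 genes named by rule had 1877 alternative values. Of these values 1855 stayed on their side of the 2-fold call, 22 crossed it and 0 reversed. Those that crossed belonged to 17 genes near the call or at low levels, among them Pik3cb, Pou5f1, Spo11, Mei4, Aldoc, Foxl2, Amhr2 and Laptm5. Other genes named in the text were not in this count. Among them Cd9, Nlrp4c, Ezh2, Dppa3, Crabp2, Syce2, E2f1, Piwil2 and Cd68 crossed the call under equal sums. Leaving out the ribosomal protein genes, chosen after the data were seen, gave 3594 higher and 3686 lower.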
